A study of Mus musculus with 2 samples.

Results

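The RNAs encoded by mitochondrial DNA were described in adrenal glands of male B6CASTF1/J mice aged 2 months, the F1 hybrid of C57BL/6J and CAST. Members were all genes whose symbol starts with mt-, which gave 37 of 55536 annotated genes: 13 mRNAs, 2 ribosomal RNAs and 22 transfer RNAs. There was 1 group of 2 libraries, replicates 1 and 2, each made from 300 ng of total RNA with a directional kit after reduction of ribosomal RNA and with ERCC spike-ins (synthetic control RNAs). There was no treatment, mutant or second tissue, so nothing was compared between conditions, and a difference between the libraries is a description of 1 library against 1. The sample labels give the animals different numbers while the library labels repeat 1 number, so whether the libraries come from separate animals is not settled by the labels.

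The mitochondrial genome is a small circle transcribed on both strands into long RNAs. Transfer RNAs lie between most of the other genes, and their excision releases the ribosomal RNAs and mRNAs, most of which then receive short poly(A) tails. The mRNAs encode membrane subunits of the respiratory chain and the ATP synthase, whose other subunits are made from nuclear genes. Steroid-producing cells of the adrenal cortex are rich in mitochondria, where the first and last steps of glucocorticoid synthesis take place. Mitochondrial DNA comes from the mother, and stretches of it have been copied into nuclear chromosomes, where they are annotated as pseudogenes.

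All 37 members had 1 annotated transcript. In the annotation (GENCODE M21 on GRCm38), 28 lay on the plus strand of chromosome M and 9 on the minus strand. The plus-strand annotation holds the transcripts made from the heavy strand as template: both ribosomal RNAs, 12 mRNAs and 14 transfer RNAs. The minus strand holds mt-Nd6 and 8 transfer RNAs, made from the light strand as template.

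Of the mRNAs, 7 had a near-identical nuclear copy, and these sequences are shown first because the counts of several members turned on them. Every mitochondrial transcript was searched against all nuclear transcripts of the same annotation. Copies with at least 99% identity over at least 200 bases numbered 7, all unprocessed pseudogenes on the minus strand of chromosome 1, within 4663 bases (chr1:24611535-24616197). The ends below are 3′ ends of mt-Co2 (chrM:7657-7696) and mt-Co3 (chrM:9351-9390) beside those of their copies Gm28661 (chr1:24614885-24614921) and Gm28437 (chr1:24613189-24613227). Capitals mark the bases that the annotated copy lacks.
mt-Co2: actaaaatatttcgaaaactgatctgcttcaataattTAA
Gm28661: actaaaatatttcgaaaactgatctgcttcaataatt
mt-Co3: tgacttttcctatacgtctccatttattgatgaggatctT
Gm28437: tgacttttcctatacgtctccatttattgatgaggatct

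Over the 681 bases of Gm28661 and the 783 bases of Gm28437, the letters were identical to mt-Co2 and mt-Co3. The annotated mitochondrial transcripts therefore differed from these copies in length by 3 bases and 1 base and in nothing else. The same held for mt-Atp6 and Gm10925, identical over 678 bases, and for mt-Nd4l and Gm10222, identical over 294. Gm28439 matched the first 876 of the 1378 bases of mt-Nd4 without a mismatch.

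The other 2 copies had 1 mismatch each within the matched bases, shown in capitals, with positions counted from 1 at the 5′ end of the mitochondrial transcript. The stretch of mt-Co1 (chrM:6390-6413) is set against Gm29216 (chr1:24616165-24616188) and that of mt-Nd3 (chrM:9459-9481) against Gm28438 (chr1:24613097-24613119).
mt-Co1: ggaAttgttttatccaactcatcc
Gm29216: ggaTttgttttatccaactcatcc
mt-Nd3: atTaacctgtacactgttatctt
Gm28438: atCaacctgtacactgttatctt

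The substitution was A1066T between mt-Co1 and Gm29216, within 483 matched bases of the 1545 of mt-Co1. It was T3C between mt-Nd3 and Gm28438, within 345 matched bases. The match to Gm29216 began at base 10 of its 492, so its first bases were outside the match. A read within the matched bases that does not cover a mismatch has the same letters in gene and copy. The division of its counts is therefore an estimate by the quantification.

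A second set of sequences shows where members overlap each other, so that the same positions of chromosome M belong to both genes. The last 43 bases of mt-Atp8 (chrM:7766-7969), in capitals, are also the first of mt-Atp6. The last 7 bases of mt-Nd4l (its end is chrM:10134-10173), in capitals, are also the first of mt-Nd4. The mRNAs mt-Nd5 and mt-Nd6 run towards each other from opposite strands, and their 3′ ends (chrM:13526-13565 on the plus strand and chrM:13552-13591 on the minus strand) share the 14 bases in capitals as reverse complements.
mt-Atp8: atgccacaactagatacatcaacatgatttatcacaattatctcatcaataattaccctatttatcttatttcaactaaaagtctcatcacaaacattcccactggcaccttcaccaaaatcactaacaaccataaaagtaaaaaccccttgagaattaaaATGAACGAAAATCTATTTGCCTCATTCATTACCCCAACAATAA
mt-Nd4l: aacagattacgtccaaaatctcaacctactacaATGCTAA
mt-Nd5: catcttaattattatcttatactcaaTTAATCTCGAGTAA
mt-Nd6: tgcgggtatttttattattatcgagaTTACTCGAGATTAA

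The capitals of mt-Atp8 and mt-Nd4l both begin with ATG, the start codon of the next reading frame. The annotated mt-Co3, mt-Nd4 and mt-Cytb have lengths that are not multiples of 3 and end in T. In mitochondrial mRNAs of this kind the stop codon is completed by the poly(A) tail, which is background and was not measured here.

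Quantification from alignments gave 36182740 expected counts on genes in replicate 1 and 34149995 in replicate 2. Quantification from reads gave 35055544 and 33159188 estimated counts. The libraries differed by more than counting error, with a chi-square of 32.3 per gene over 17265 genes, so they were not the same library under 2 names. Adrenal cortex genes were abundant in both: Star, which moves cholesterol into mitochondria, was at 5294 and 5939 TPM (a level per transcript length, scaled to the same total in each library) and Cyp11a1, the enzyme of the first step of steroid synthesis, at 2148 and 2298. The chromaffin gene Th, the first enzyme of catecholamine synthesis, was at 395 and 334 TPM. In RNA from whole tissue, fewer cells of a type and less RNA per cell cannot be told apart.

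Mitochondrial RNAs held 19.8% of the expected counts of replicate 1 and 15.7% of those of replicate 2, a mean of 17.7% ± 2.89 (SD, n = 2). The exact 95% Clopper-Pearson bounds were 19.77% and 19.80% for replicate 1, and 15.69% and 15.71% for replicate 2. Such intervals treat counts as independent, which PCR copies of a molecule are not, so they cover at most counting error. The 2 ribosomal RNAs took most of it, at 14.0% and 11.2% of expected counts. The 13 mRNAs held 5.83% and 4.54%, and with their 7 nuclear copies added 8.11% and 6.35%. The copies alone thus held 2.28% and 1.82% of all expected counts. By the read-based counts the copies held less, 1.23% and 0.911%, and the mRNAs with copies held 7.39% and 5.74%. All mitochondrial RNAs with copies held 22.0% and 17.3%, against 22.1% and 17.5% alignment-based. Most of that total is ribosomal RNA, for which no near-identical copy was found. Its near-equality therefore does not show how far gene and copy together depended on the quantification.

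The ribosomal RNAs form the core of the mitochondrial ribosome. The 12S rRNA mt-Rnr1 (ENSMUSG00000064337.1, chrM:70-1024) was at 53571 TPM in replicate 1 and 45882 in replicate 2. The 16S rRNA mt-Rnr2 (ENSMUSG00000064339.1, chrM:1094-2675) was at 56711 and 44556. Their order changed between the libraries: the ratio of mt-Rnr1 to mt-Rnr2 was 0.945 in replicate 1 and 1.03 in replicate 2. It was 0.796 and 0.873 by the read-based TPM, below 1 in both. No near-identical nuclear copy was found for either. The median of both rRNAs was 13.01 and 13.13 times the median of the 13 mRNAs, and 10.4 and 10.4 times with copies added. The libraries had been depleted of ribosomal RNA, and how far this removed mt-Rnr1 and mt-Rnr2 was not tested.

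All 22 transfer RNAs, which are 59 bases (mt-Ts2) to 75 bases (mt-Tl1) long, were listed at 0 in both libraries and both quantifications. The shortest and the longest are printed whole, to show how these compare with the 100 bases under which the tables held no counts. They lie at chrM:11613-11671 and chrM:2676-2750 on the plus strand, and both are in lower case throughout because no base is singled out.
mt-Ts2: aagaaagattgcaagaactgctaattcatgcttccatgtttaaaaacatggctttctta
mt-Tl1: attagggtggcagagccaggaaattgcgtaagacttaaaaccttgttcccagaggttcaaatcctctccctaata

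Of 2398 genes shorter than 100 bases in the gene tables, 0 held a count in either library. Of 2451 transcripts that short in the read-based tables, 0 held one either. No upper limit is given for the transfer RNAs, since nothing of their length was counted in these tables.

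Complex IV, cytochrome c oxidase, reduces oxygen to water, and its catalytic core is made of the products of mt-Co1, mt-Co2 and mt-Co3. The gene mt-Co1 (ENSMUSG00000064351.1, chrM:5328-6872), for the subunit that holds the heme groups, was at 12108 and 10066 TPM in replicates 1 and 2, the highest mRNA as listed. It kept 89.4% and 90.4% of the expected counts it shares with Gm29216, so adding the copy moved it only to 13537 and 11136 TPM. No nuclear protein-coding gene had a higher TPM than mt-Co1 in either library.

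The gene mt-Co2 (ENSMUSG00000064354.1, chrM:7013-7696), for the subunit that receives electrons from cytochrome c, was listed at 201 and 121 TPM, the lowest of all 13 mRNAs. Its expected counts were 4558 and 2553, while those of Gm28661, identical but for the last 3 bases, were 303056 and 222101. The mitochondrial gene thus held 1.48% and 1.14% of the sum. Gene and copy together gave 13532 and 10613 TPM, close to the values of mt-Co1 with its copy. As listed, 210 and 362 nuclear protein-coding genes had a higher TPM than mt-Co2.

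The authors' deposited tables carry their own sign of this uncertainty. For mt-Co2 the posterior mean count, an average over plausible assignments of the reads, was 42408 and 35038, against expected counts of 4558 and 2553. The posterior SD was 6376 and 5355 counts, larger than the expected count itself. In contrast, the posterior SD of mt-Nd1, mt-Atp8 and mt-Cytb, which have no annotated near-identical copy, was 0 in both libraries. The expected TPM of mt-Co2 in replicate 1, 201, lay below the deposited TPM interval of 1313 to 2356.

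The gene mt-Co3 (ENSMUSG00000064358.1, chrM:8607-9390), for the third core subunit, was at 3541 and 2262 TPM. Its copy Gm28437 held 206054 and 162565 expected counts against 94252 and 56058 on mt-Co3, so that 31.4% and 25.6% stayed on the mitochondrial gene. The sum gave 11282 and 8821 TPM. With copies added, the 3 core subunits of complex IV stood at 12337 ± 1697, 12073 ± 2064 and 10051 ± 1740 TPM (SD, n = 2) for mt-Co1, mt-Co2 and mt-Co3. In each library mt-Co3 was below both others, but across the libraries the values of all 3 overlapped.

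Complex V, the ATP synthase, has 2 mitochondrially encoded subunits, both in its membrane part. The gene mt-Atp6 (ENSMUSG00000064357.1, chrM:7927-8607), whose product forms the proton channel together with the rotor ring, was at 6639 and 4804 TPM. Its copy Gm10925 held 231456 and 176252 expected counts, leaving 39.3% and 36.5% on mt-Atp6. The sum was 16873 and 13173 TPM, the highest of the mRNAs in the alignment-based tables once copies were added. In the read-based tables with copies added, mt-Co2 was higher (26375 and 21901 TPM) than mt-Atp6 (25082 and 20518). The gene mt-Atp8 (ENSMUSG00000064356.3), for a small subunit and read from the same bicistronic mRNA, was at 5326 and 4356 TPM with no annotated near-identical copy. Its level was thus below that of mt-Atp6 with its copy in both libraries, although both frames lie on 1 mRNA. Its 204 bases are the shortest of the mRNAs. Only annotated transcripts were searched for copies. Between Gm10925 and Gm28661 lie 233 bases of chromosome 1, as many as lie between the copied part of mt-Co2 and mt-Atp6 on chromosome M, where most of mt-Atp8 is. Whether that stretch holds a copy of mt-Atp8 was not tested.

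Complex III passes electrons from ubiquinol to cytochrome c. Its mitochondrial subunit, cytochrome b, is encoded by mt-Cytb (ENSMUSG00000064370.1, chrM:14145-15288), which was at 7567 and 5831 TPM. It had no near-identical copy, and only mt-Co1 was above it in both libraries as the genes are listed.

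Complex I oxidises NADH, and 7 of its membrane subunits are mitochondrially encoded. The gene mt-Nd1 (ENSMUSG00000064341.1, chrM:2751-3707), for a subunit next to the ubiquinone site, was the highest of these with 6094 and 4794 TPM. The proton-pumping subunit genes mt-Nd2, mt-Nd4 and mt-Nd5 were at 4239 and 3253, 4409 and 3612, and 3014 and 2317 TPM. The small subunit gene mt-Nd3 was at 3316 and 2623 TPM, and its copy Gm28438 was listed at 0 expected counts. The small subunit gene mt-Nd4l was at 4118 and 3443 TPM, or 4751 and 3998 with Gm10222 added. The 6 heavy-strand mRNAs of complex I thus lay between 3014 and 6094 TPM in replicate 1, all below the 3 core subunits of complex IV with copies added.

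The light-strand mRNA mt-Nd6 (ENSMUSG00000064368.1, chrM:13552-14070, minus strand), for another membrane subunit of complex I, was at 464 and 391 TPM. That was 10.7% and 11.1% of the median of the 12 heavy-strand mRNAs, a mean of 10.9% ± 0.265 (SD, n = 2). With copies added to the heavy-strand mRNAs it was 8.12% and 8.55%, and by the read-based TPM 13.5% and 14.2%. Set against mt-Nd5 alone, its neighbour on the other strand with which it shares the 14 bases printed above, mt-Nd6 reached 15.4% and 16.9%. By alignment-based TPM mt-Nd6 was the lowest mRNA in both libraries once copies were added, and mt-Nd5, the next above it, had no overlapping value. By the read-based TPM mt-Atp8 (0 in both) and mt-Nd4l (110 and 79.2) were below mt-Nd6 (956 and 881).

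Base composition set mt-Nd6 apart as well. It held 28.1% G and 5.97% C, whereas the 12 heavy-strand mRNAs held 5.88% to 16.1% G and 22.1% to 30.0% C. Their total of G and C was alike, 34.1% in mt-Nd6 and 31.9% to 41.1% in the others. The strand bias is a known property of this genome. The library kit keeps strand, but whether the counting used it is not given in the sources used here, so RNA from the opposite strand over mt-Nd6 could not be told apart.

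**Figure D1:**
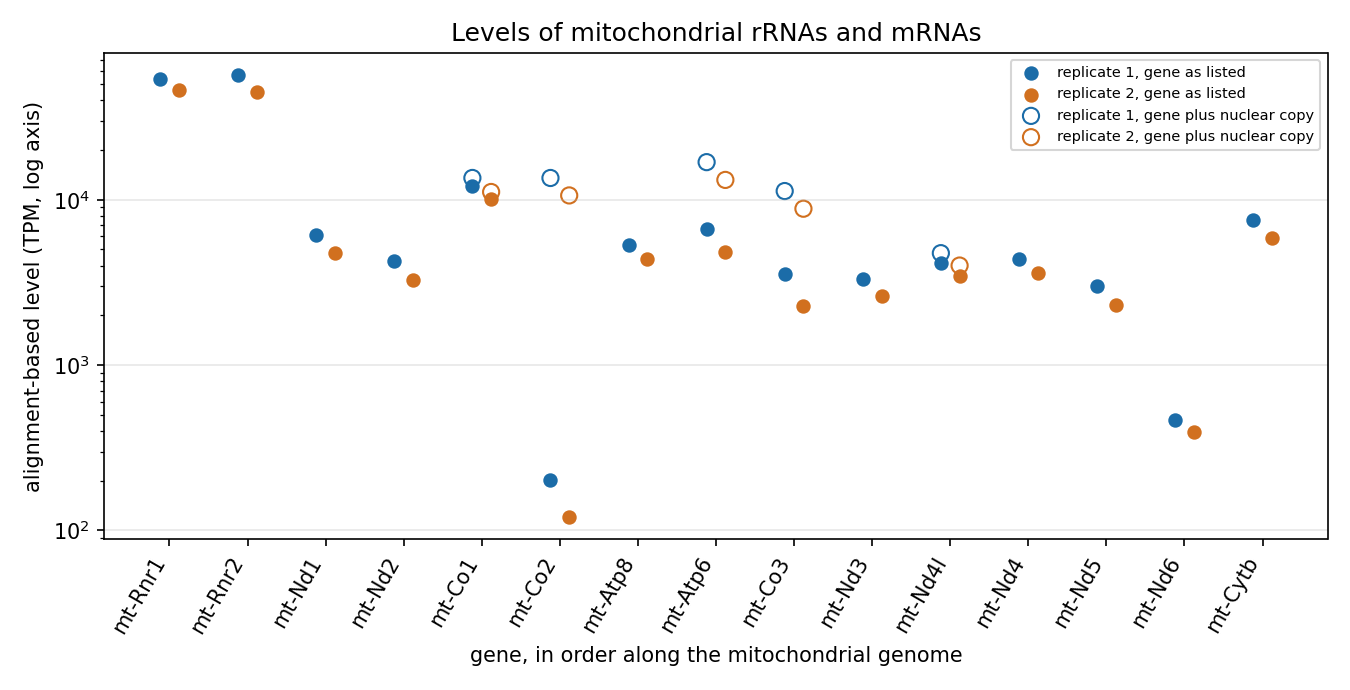
Alignment-based levels in TPM on a log axis for the 2 rRNAs and 13 mRNAs in genome order, as listed (filled) and with the near-identical nuclear copy added (open, shown where it raises the mean by over 2%), for each library. mt-Co2 moves from 201 and 121 TPM to 13532 and 10613, while mt-Nd6 stays at 464 and 391.

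Adding the copies narrowed the spread of the heavy-strand mRNAs. As listed, the highest was 60.4 times the lowest in replicate 1 and 83.5 times in replicate 2, with mt-Co2 the lowest. With copies added the ratio was 5.60 and 5.69, with mt-Nd5 the lowest. The order of all 13 mRNAs by alignment-based level was then the same in both libraries: mt-Atp6, mt-Co1, mt-Co2, mt-Co3, mt-Cytb, mt-Nd1, mt-Atp8, mt-Nd4l, mt-Nd4, mt-Nd2, mt-Nd3, mt-Nd5 and mt-Nd6. As listed, the order differed between the libraries in the places of mt-Nd2, mt-Nd4l, mt-Co3, mt-Nd3 and mt-Nd5. The mean of mt-Co3 with its copy (10051 ± 1740 TPM) and that of mt-Cytb (6699 ± 1227) did not overlap in their library values. Neighbours higher in the order (mt-Atp6 and mt-Co1, mt-Co1 and mt-Co2, mt-Co2 and mt-Co3) did overlap. So did some further down, such as mt-Nd4 and mt-Nd2.

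Among nuclear protein-coding genes, 0 stood above mt-Co1 in either library. For mt-Cytb, mt-Atp6, mt-Nd1 and mt-Atp8 as listed, 0 stood above in replicate 1 and 1 in replicate 2, where Star was at 5939 TPM. For mt-Nd6 the numbers were 47 and 59.

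The read-based quantification divided the same reads differently. For mt-Atp6 it left 235053 and 167188 estimated counts on the mitochondrial gene and 2006 and 3597 on Gm10925, so that 99.2% and 97.9% stayed on mt-Atp6, where the alignment-based tables left 39.3% and 36.5%. For mt-Co1, 98.2% and 98.8% stayed on the mitochondrial gene. For mt-Co2 both quantifications placed nearly all counts on the copy: 12114 and 8611 estimated counts on mt-Co2 against 239257 and 175223 on Gm28661. For mt-Co3, 31.2% and 36% stayed on the gene.

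Copies with few counts also differed between the tables. Gm28439 was listed at 0 expected counts but held 6512 and 5133 estimated counts, beside 218842 and 164985 on mt-Nd4. Gm10222 held 4866 and 3974 expected counts and was listed at 0 in the read-based tables. Gm28438 was at 0 or under 1 count in both quantifications, so mt-Nd3 held its counts alone.

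**Figure D2:**
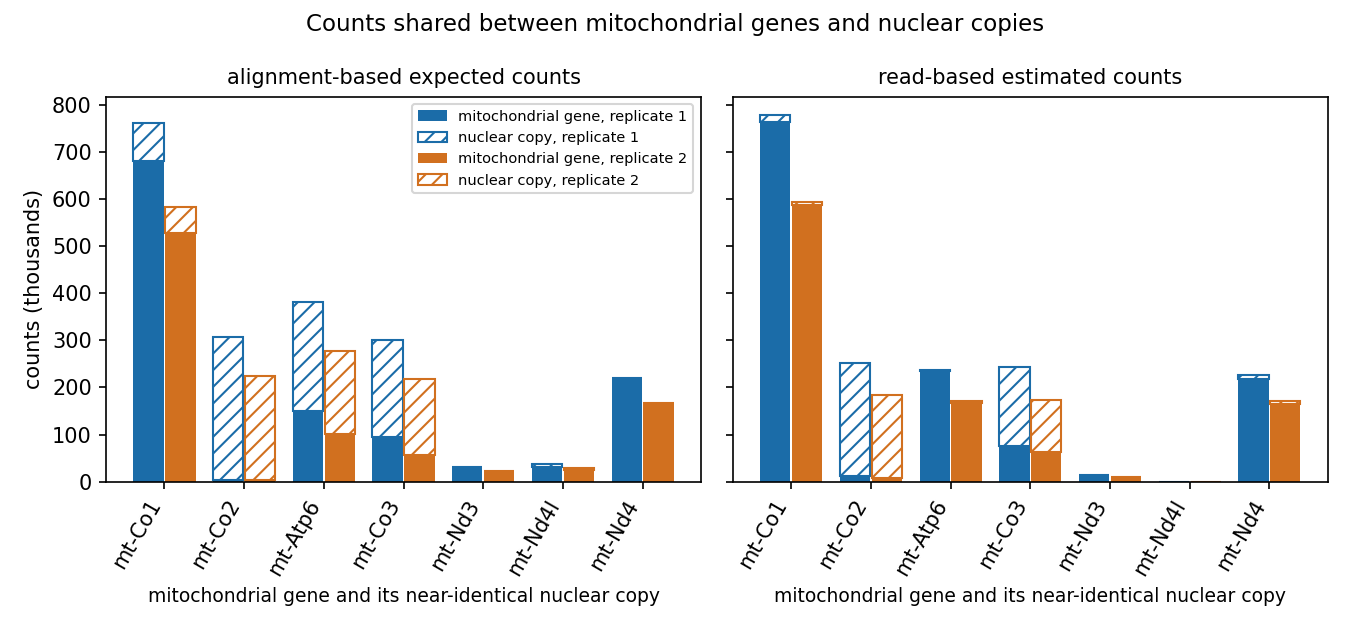
Counts on 7 mitochondrial mRNA genes (solid) and their near-identical nuclear copies (hatched), by library, for the alignment-based and the read-based tables. The hatched part is most of mt-Co2 in both panels, and most of mt-Atp6 only in the alignment-based panel.

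Nuclear copies with more differences held few counts. Of 29 pseudogenes with at least 80% identity to a mitochondrial transcript, the other 22 held 299 and 222 expected counts in all. Of these, 2 reached 100 counts in either table, both on chromosome 2. Gm13340, with 97.6% identity over the 1545 bases of mt-Co1, held 159 and 131 expected counts. Gm13341, with 95.9% identity to mt-Co2, held 131 and 83.9. The whole-length copy of mt-Co1 with many mismatches thus held far fewer counts than Gm29216, which matches 31.3% of mt-Co1 with 1 mismatch and held 80293 and 55993 expected counts.

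Gene by gene, read-based counts were divided by alignment-based counts. Over the 13 mRNAs the median of this ratio was 0.982 and 0.987. The 4 mRNAs without a copy and with at least 900 bases (mt-Nd1, mt-Nd2, mt-Nd5 and mt-Cytb) had ratios of 0.864 to 1.01 in replicate 1 and 0.860 to 0.996 in replicate 2. For mt-Co2 the ratio was 2.66 and 3.37, and with Gm28661 added to both sides 0.817 and 0.818. For mt-Atp6 it was 1.57 and 1.65, and with Gm10925 added 0.621 and 0.616.

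Short members had low ratios. The gene mt-Atp8 (204 bases) had 21732 and 16549 expected counts and was listed at 0 in the read-based tables. The gene mt-Nd4l (297 bases) had 31685 and 24667 expected counts against 194 and 123 estimated, a ratio of 0.00612 and 0.00499. For mt-Nd3 (348 bases) the ratio was 0.440 and 0.443, and for mt-Nd6 (519 bases) 0.667 and 0.687. The ratio thus was higher the longer the gene over these 4 members, given as a description of 4 genes that share the libraries.

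Nuclear genes with 1 transcript showed the same order by length. In replicate 1 the 93 genes with lengths of 100 to 300 bases had a median ratio of 0. The median was 0.130 over 140 genes between 300 and 600 bases, 0.767 over 149 genes up to 1000 bases and 0.994 over 329 genes up to 2000 bases. Replicate 2 gave 0, 0.0795, 0.772 and 0.985. The deposited effective length, the number of places where a fragment can start, was shorter than the transcript by 99 bases in the alignment-based tables, and by a median of 325 and 326 bases in the read-based ones. Among the 15 rRNAs and mRNAs, 3 had more than 2-fold fewer read-based counts in both libraries (mt-Atp8, mt-Nd3 and mt-Nd4l), against 2.31% of 12830 genes with 100 or more counts. More than 2-fold higher was 1, mt-Co2, against 2.11% of those genes.

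**Figure D3:**
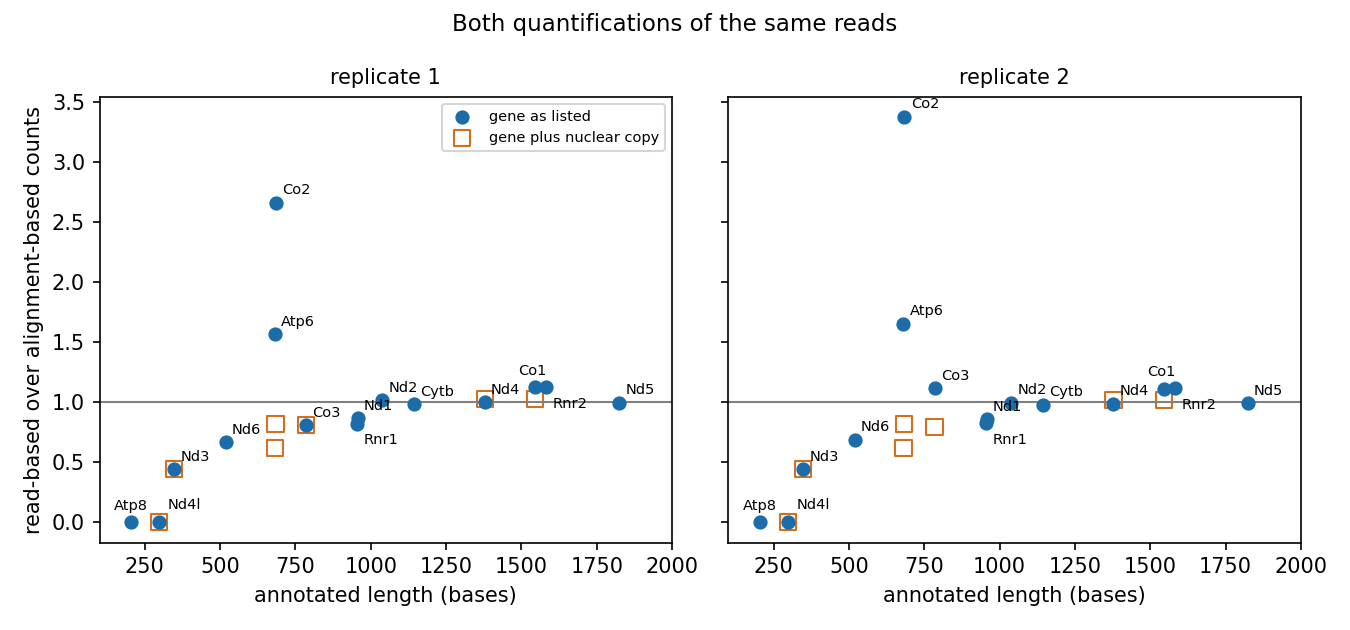
Read-based counts over alignment-based counts, plotted against annotated length in bases for the 2 rRNAs and 13 mRNAs, 1 panel per library. Squares add the nuclear copy to both counts. Atp8 and Nd4l lie at or near 0, and Co2 moves from 2.66 and 3.37 to 0.817 and 0.818.

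Between the libraries, all 13 mRNAs were lower in replicate 2. Library sizes were scaled by TMM (trimmed mean of M values), and ratios are log2 of replicate 2 over replicate 1. The median over the 13 mRNAs was -0.44, with a range of -0.83 (mt-Co2) to -0.34 (mt-Nd6), where the median of all genes was -0.0070. In all 13, the level in replicate 2 was below 0.8 times that in replicate 1, the threshold used here for a lower level, against 7.13% of 12430 genes with a mean of at least 100 counts. Being lower at all was shared by 51.8% of those genes. The threshold was chosen with earlier results of these data known. By total count, by TPM and by ERCC counts, 8 of 13 were past this threshold (against 4.42%, 5.24% and 3.85% of genes), with mt-Atp8, mt-Co1, mt-Nd4, mt-Nd4l and mt-Nd6 short of it. These scalings move all genes nearly alike. A shift common to all genes cancels once the median of all genes is subtracted. Relative to that median, 13 of 13 were again past the threshold, and the median of the mRNAs stood at -0.43. For total count and ERCC counts this repeats the TMM result by construction, so it is no separate support.

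The 2 members past 1.5-fold lower, against 1.42% of genes, were mt-Co2 at -0.83 (95% counting interval -0.90 to -0.76) and mt-Co3 at -0.74 (-0.76 to -0.73). Both share most of their counts with a copy, and the intervals leave out the error of dividing reads between gene and copy. For mt-Co2 the posterior SD, 6376 and 5355 counts, was larger than the expected counts of 4558 and 2553. With Gm28661 and Gm28437 added, mt-Co2 and mt-Co3 were at -0.45 and -0.45, and 0 of 13 were then past 1.5-fold. The gene mt-Atp6 likewise moved from -0.56 to -0.45. With copies added the 13 ratios ran from -0.48 (mt-Nd2) to -0.34 (mt-Nd6), and their SD over genes went from 0.150 to 0.0490. The 6 mRNAs with no annotated near-identical copy had a median of -0.46, so the lower level in replicate 2 was as large without the members whose counts are divided.

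Members without an annotated copy, among which the status of mt-Atp8 on chromosome 1 is untested, ranged from -0.48 to -0.34. The gene mt-Nd5 was at -0.47 (-0.48 to -0.47), mt-Cytb at -0.47 (-0.48 to -0.46), mt-Nd1 at -0.44 (-0.45 to -0.43) and mt-Atp8 at -0.39 (-0.41 to -0.36). The light-strand mRNA mt-Nd6 was at -0.34 (-0.39 to -0.29). Of the ribosomal RNAs, mt-Rnr2 was at -0.44 and mt-Rnr1 at -0.32, which was short of the threshold. The counting intervals of mt-Nd5 and mt-Nd6 did not overlap, but with 1 library on each side the spread between animals is unknown.

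By the read-based counts, the 12 mRNAs with counts had a median of -0.48. All 12 were lower, against 55% of 12537 genes, and 10 were below 0.8 times, against 7.55%. The members that moved most from the other quantification were mt-Co3 at -0.29, mt-Co2 at -0.50 and mt-Nd4l at -0.67. The last rests on 194 and 123 estimated counts. With copies added, mt-Co3 was at -0.50 and mt-Co2 at -0.46.

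**Figure D4:**
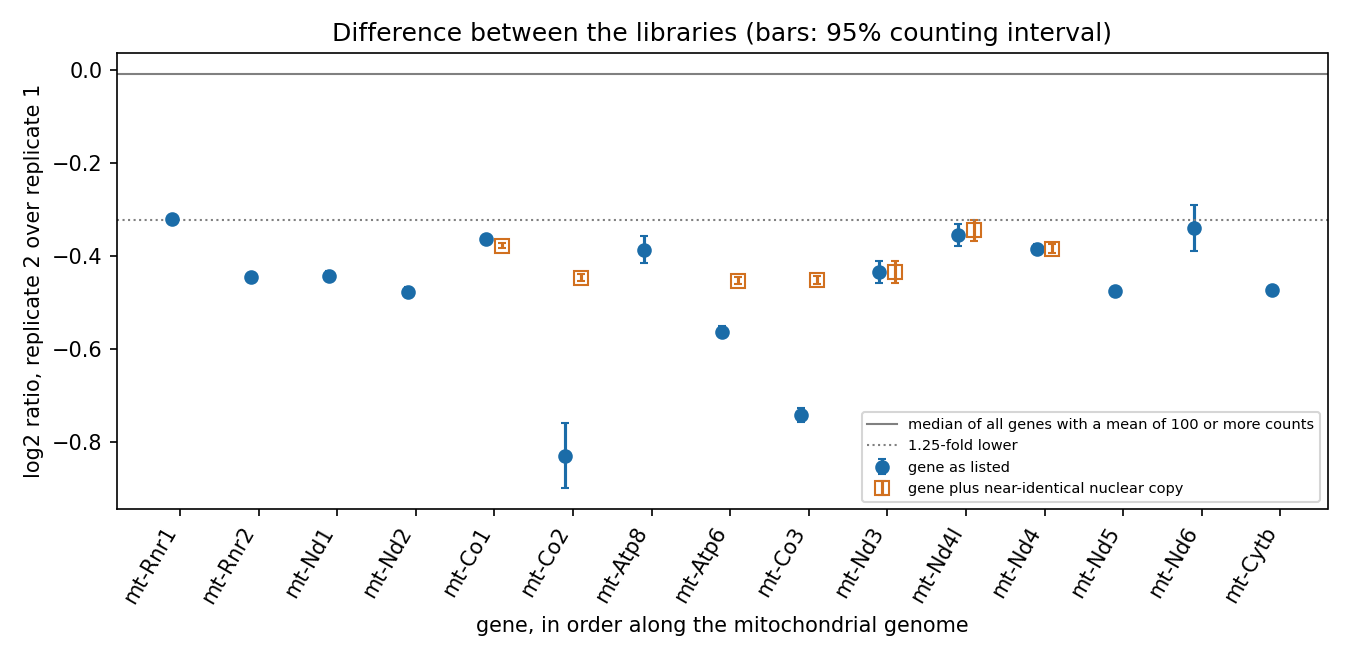
Log2 ratio of replicate 2 over replicate 1 for the 2 rRNAs and 13 mRNAs in genome order, as listed (circles) and with the nuclear copy added (squares), with 95% counting intervals. The intervals leave out the error of dividing reads between gene and copy. The grey line is the median of all genes (-0.0070) and the dotted line marks a ratio of 0.8. mt-Co2, mt-Co3 and mt-Atp6 move from between -0.83 and -0.56 to -0.45.

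Listed nuclear genes for the same complexes were lower in replicate 2 by similar amounts. The lists hold chosen genes and not every nuclear subunit of each complex. With TMM, the numbers for complexes I to V are read against all genes, of which 51.8% were lower and 7.13% past the threshold. Of 11 nuclear complex I genes, 11 were lower and 9 were past the threshold of 0.8 times, with a median log2 ratio of -0.42. Ndufv1, which binds NADH, was at 129 and 98.4 TPM (-0.48). Complex II, the only respiratory complex with no mitochondrially encoded subunit, had 3 of 4 genes past the threshold and a median of -0.41. Its flavoprotein gene Sdha was at 202 and 172 TPM (-0.31).

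Complexes III and IV followed the same pattern. All 7 listed nuclear complex III genes were past the threshold (median -0.46), among them Cyc1, which encodes cytochrome c1, at 143 and 109 TPM (-0.52). Of 10 complex IV genes, 9 were past it (median -0.43), among them Cox4i1 at 533 and 420 TPM (-0.42). Of 8 complex V genes, 4 were past it (median -0.33), and the catalytic subunit gene Atp5b was at 968 and 814 TPM (-0.39). The mitochondrial and nuclear lists share the same pair of libraries, so their medians are given side by side only. With ERCC counts, 5 of 11, 1 of 4, 5 of 7, 5 of 10 and 1 of 8 genes of complexes I to V were past the threshold, against 3.85% of all genes.

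Genes that make and handle mitochondrial RNA had medians nearer to that of all genes. Their sign depends on the scaling: ERCC counts add 0.11 to every ratio, that of the median gene included, which puts 4 of these lists (transcription, stability, rRNA and tRNA modification) at 0.01 to 0.07 and the other 3 at -0.03 to -0.01. Their distance from the median of all genes is the same with either. The counts below are read against the 51.8% of genes that were lower and the 7.13% past the threshold. In the transcription and replication list, 13 of 16 genes with 100 or more counts were lower and 3 were past the threshold, with a median of -0.09. The mitochondrial RNA polymerase Polrmt was at 18.2 and 16.7 TPM (-0.22), the DNA-packaging factor Tfam at 15.7 and 16.8 (-0.09) and the DNA polymerase Polg at 19.0 and 18.8 (-0.02). The elongation factor Tefm was the furthest down, at 6.87 and 4.84 TPM (-0.54).

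RNA processing and stability genes showed no member past the threshold (with DESeq2 size factors, 1 processing gene). In the processing list, which holds the enzymes that cut out transfer RNAs, 10 of 12 were lower with a median of -0.14, and Hsd17b10, a subunit of the 5′-end nuclease, was at 63.0 and 55.2 TPM (-0.29). In the stability and decay list 6 of 8 were lower (median -0.06), with Slirp, a partner of the mRNA-stabilising factor Lrpprc, at 54.4 and 52.0 TPM (-0.13). The RNA-binding protein Grsf1 was at 41.2 and 41.9 TPM (-0.04).

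Lists for modification and translation were alike. The rRNA modification list had 6 of 9 lower (median -0.04), the tRNA modification list 9 of 10 (median -0.10), each with 0 past the threshold. The aminoacyl-tRNA synthetase list also holds subunits of a transfer RNA amidotransferase, which are not synthetases. Of its 22 genes, 15 (68.2%) were lower and 2 (9.09%) were past the threshold (median -0.12), near the share of all genes past it. Cars2 was the furthest down at 13.9 and 10.99 TPM (-0.44). Of 11 translation factors, 10 were lower and 1 was past it (median -0.11). That one was Mtif3, an initiation factor, at 11.5 and 9.81 TPM (-0.36), and the elongation factor Tufm was at 69.2 and 66.2 TPM (-0.16).

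Markers of fat and blood were lower in replicate 2, as the mitochondrial mRNAs were. Those of liver and kidney had higher summed levels but few counts. Numbers of genes past the threshold are again read against 7.13% of all genes. All 7 brown adipocyte genes with 100 or more counts were past the threshold, with a median of -1.0 and a summed level of 1557 TPM in replicate 1 and 792 in replicate 2. Ucp1, which uncouples respiration in brown fat, was at 629 and 303 TPM, and Cox8b, a complex IV subunit of muscle and brown fat, at 510 and 272. The eighth marker, Zic1, was listed at 0.00 TPM in both. Brown adipocytes are rich in mitochondria, and the part of their RNA in the mitochondrial mRNAs was not tested.

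White adipocyte genes had 4 of 6 past the threshold (median -0.52). Red cell genes had 5 of 5 (median -0.77), with a summed level of 1948 and 1174 TPM. Chromaffin genes had 2 of 7 (median -0.27). Adrenal cortex genes had 0 of 7 past it, with a median of 0.09, so the list of the gland's main cell type did not move with the mitochondrial mRNAs. Liver and kidney markers were scarce: 1 of 4 liver genes (Alb) and 0 of 4 kidney genes had a mean of 100 or more counts. Their summed levels in replicates 1 and 2 were 2.21 and 7.63 TPM for liver and 1.65 and 4.72 TPM for kidney. The higher sums in replicate 2 thus rest on low counts.

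**Figure D5:**
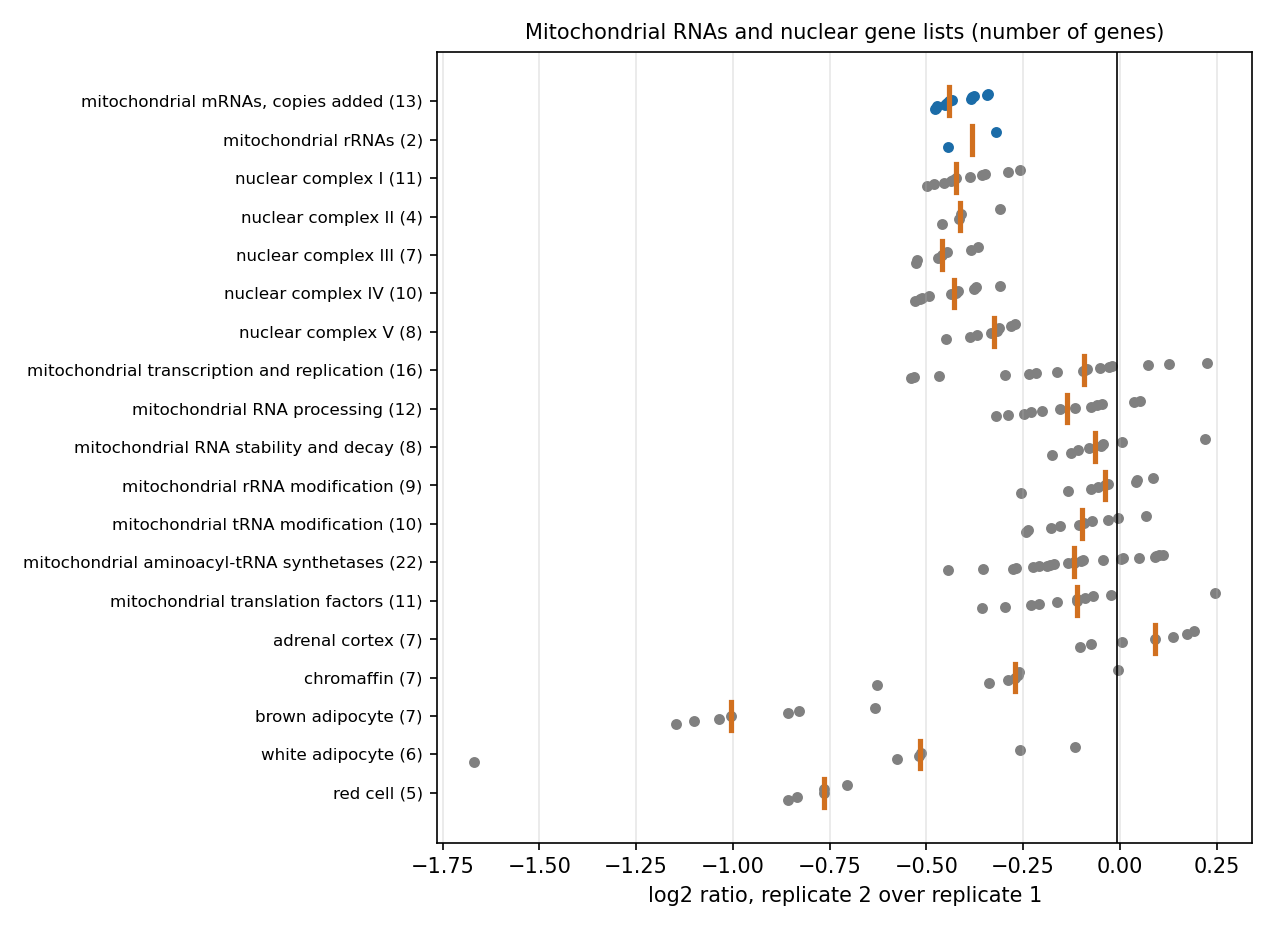
Log2 ratio of replicate 2 over replicate 1 for the mitochondrial mRNAs with copies added, the rRNAs, and nuclear gene lists. Each point is 1 gene with 100 or more counts, orange bars are medians, and the number of genes is in parentheses. The median of the mRNAs (-0.44) lies among those of the nuclear complex lists (-0.46 to -0.33), below those for mitochondrial gene expression and above that of the brown adipocyte genes (-1.0).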

How the data were processed

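Total RNA of 2 adrenal libraries was analysed from 2 kinds of table. Per the deposited file notes, the alignment-based gene tables were derived from transcriptome alignments and the read-based transcript tables from read files and an index, both on mm10 with GENCODE M21; aligner and quantifier are not given in the sources used here. Per the file headers, the gene tables hold expected counts, posterior means, TPM with intervals and FPKM (not used), and the read-based tables hold estimated counts and TPM, as the authors deposited them. Signal tracks were not analysed here.

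Members were found by symbol and joined by gene identifier. Nuclear copies were found with blastn 2.17.0 on the sense strand. Copy counts were added to the member's and divided by its effective length. Log2 ratios used counts plus 0.5 over TMM-scaled library sizes (edgeR 4.0.16), a mean of at least 100 counts and a threshold ratio of 0.8; no model was fitted, because each side has 1 library. ERCC and transfer RNA rows stayed out of totals, and 86 genes were not in the read-based tables. Alternatives were DESeq2 1.42.0 size factors, total count, TPM, ERCC counts, other filters and leaving out a library. The ratio step was checked on simulated data.

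Members and lists were chosen with earlier results of these data known. All mitochondrial RNAs with counts are named. Of each nuclear list, named genes were among the 3 highest by TPM or the 2 furthest in each direction, and all brown adipocyte and red cell genes could be named. Copies with 100 or more counts are named. Gm28438 was named besides, after its values were seen, as the copy listed at 0.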

Additional observations from a re-analysis of the deposited data

How the results depend on the processing

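The share of counts held by mitochondrial RNAs ranged from 15.7% to 19.8% with either library left out, and its mean was 18.6% by read-based counts. As a share of TPM it was 17.1% and 13.8% in replicates 1 and 2 alignment-based, but 30.6% and 26.1% read-based. The median log2 ratio of the mRNAs, -0.44, was -0.37 by total count, -0.45 with DESeq2 size factors, -0.35 by TPM, -0.34 by ERCC counts, -0.48 by read-based counts and -0.46 over the mRNAs without a copy. ERCC scaling moved the median of all genes to 0.10. Members below 0.8 times their level in replicate 1 numbered 8 in place of 13 by total count, 8 by TPM and 8 by ERCC counts. Genes below it numbered 886 in all, 2048 with a mean of at least 10 counts, 5628 with no filter and 549 by total count. All 97 single ratios recomputed for the mRNAs were below 0. Alternatives that only rescale the libraries add at most 0.11 to every ratio, so they could not change the sign of ratios of -0.34 or lower. The median level of the 13 mRNAs, 3841 TPM, was 6059 read-based and 4841 with copies added, and 3443 to 4239 with either library left out. The level of mt-Nd6 was 13.9% of the heavy-strand median read-based, 11.5% by expected counts per kilobase, 8.34% with copies added and 10.7% to 11.1% with either library left out. The ratio of quantifications was 1.93 by TPM, 0.818 with copies added and 0.982 to 0.987 with either library left out. Adding copies (except to the ratio of quantifications) and leaving out members with copies were chosen after seeing the data; the cause of these shifts was not tested beyond the copies' own counts. No paired analysis was possible because there is 1 group. With 2 libraries, differences between animals cannot be measured.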
